A study of Mus musculus with 267 samples.

Results

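In C57BL/6J bone marrow-derived macrophages, 836 of 77955 regions (1.07%) met a rule for a gain of H3K27ac tags at 24 h of interleukin-4 (IL-4). They did not meet the same rule at 1 h or 6 h. H3K27ac is acetylation of histone H3 at lysine 27, a mark of active promoters and enhancers. The regions were 1000 bp windows around open chromatin. A region was a member where the replicate mean of its normalized tags (tags per 10000000 of the library) plus 1 was at least 2.5-fold higher at 24 h than in basal cells, the larger mean was at least 16 tags, and the rule was not met at 1 h or 6 h. The members were thus chosen by H3K27ac in these libraries, and its values in this time course are given as a description. Macrophages came from bone marrow of young adult female mice grown in M-CSF, a macrophage growth factor, and were left untreated (basal) or given 20 ng/mL IL-4. ChIP-seq (sequencing of the DNA that an antibody pulls down) was done in C57BL/6J at basal, 1 h, 6 h and 24 h, and in BALB/cJ, NOD/ShiLtJ, PWK/PhJ and SPRET/EiJ (BALB, NOD, PWK and SPRET) at basal and 24 h. It was also done in Egr2 fl/fl macrophages, which carry loxP-flanked Egr2 alleles, and in LyzM-Cre Egr2 fl/fl macrophages, which carry the same alleles and Cre from the lysozyme gene of myeloid cells. Both genotypes share the flanked alleles, no strain with Cre alone was part of the comparison, and the deletion was taken from the labels because none of the values used here measures the Egr2 transcript.

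IL-4 binds its receptor, Janus kinases phosphorylate STAT6, and STAT6 enters the nucleus and switches on genes of alternative activation within minutes to hours. Some of those first genes encode transcription factors, among them EGR2 and the nuclear receptor PPARg, which can act on further genes later. PU.1 and C/EBPb are factors that keep macrophage enhancers open, and enhancers are DNA elements that raise transcription of genes at a distance. RNA polymerase II (Pol II) tags at an enhancer reflect polymerase loaded there. A ChIP-seq value is an average over the culture, so that more cells carrying a mark and more of the mark per cell cannot be told apart.

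Sequences of 300 bases around the centre of 7 members are shown because the results turn on these regions. They were read from the plus strand of mm10, and capitals mark matches on either strand to the letters searched (TTCNNNNGAA for STAT6, GCGTGGG and the looser GNGTGGGNG for EGR, GGGNGTGG for KLF, TTGCNNAA for C/EBP, GAGGAAGT for PU.1, TGANTCA for AP-1). The regions nearest Rnase2a (chr14:51256134-51256433) and Bhlhe40 (chr6:108668238-108668537) had the largest Pol II increases among members. Rnase2a encodes a ribonuclease of the eosinophil-associated family, and its region lay at the gene's start. Bhlhe40 encodes a helix-loop-helix transcription factor, and its region was intergenic, 7758 bp from the gene's start.
Rnase2a: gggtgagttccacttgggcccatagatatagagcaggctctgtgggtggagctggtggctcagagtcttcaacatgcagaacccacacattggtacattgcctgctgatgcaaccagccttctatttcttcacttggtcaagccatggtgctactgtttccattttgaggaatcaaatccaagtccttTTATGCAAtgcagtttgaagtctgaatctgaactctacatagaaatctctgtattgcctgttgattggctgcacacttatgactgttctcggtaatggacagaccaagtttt
Bhlhe40: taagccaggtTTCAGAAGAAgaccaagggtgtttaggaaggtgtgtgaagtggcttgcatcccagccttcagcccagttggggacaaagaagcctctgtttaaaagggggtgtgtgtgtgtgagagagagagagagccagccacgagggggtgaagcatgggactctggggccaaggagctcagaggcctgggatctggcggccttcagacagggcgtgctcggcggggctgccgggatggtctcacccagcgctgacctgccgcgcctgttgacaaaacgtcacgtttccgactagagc
The region in an intron of Pcnx4 (chr12:72572429-72572728), a membrane protein gene, had the largest H3K27ac ratio. The regions in an intron of St8sia1 (chr6:142959900-142960199), a sialyltransferase of ganglioside synthesis, and between genes near Lclat1 (chr17:73250537-73250836), an acyltransferase of cardiolipin, had the largest mean increases over the other 4 strains.
Pcnx4: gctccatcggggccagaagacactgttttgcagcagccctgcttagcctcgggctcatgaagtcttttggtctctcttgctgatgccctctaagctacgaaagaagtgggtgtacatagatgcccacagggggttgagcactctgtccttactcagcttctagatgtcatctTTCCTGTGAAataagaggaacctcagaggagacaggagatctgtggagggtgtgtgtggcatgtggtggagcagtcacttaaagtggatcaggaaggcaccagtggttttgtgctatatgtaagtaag
St8sia1: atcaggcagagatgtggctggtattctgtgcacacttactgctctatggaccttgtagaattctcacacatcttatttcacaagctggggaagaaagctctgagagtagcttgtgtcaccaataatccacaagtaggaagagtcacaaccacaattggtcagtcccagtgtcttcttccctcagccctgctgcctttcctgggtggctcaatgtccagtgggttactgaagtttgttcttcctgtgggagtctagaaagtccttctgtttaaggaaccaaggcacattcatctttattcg
Lclat1: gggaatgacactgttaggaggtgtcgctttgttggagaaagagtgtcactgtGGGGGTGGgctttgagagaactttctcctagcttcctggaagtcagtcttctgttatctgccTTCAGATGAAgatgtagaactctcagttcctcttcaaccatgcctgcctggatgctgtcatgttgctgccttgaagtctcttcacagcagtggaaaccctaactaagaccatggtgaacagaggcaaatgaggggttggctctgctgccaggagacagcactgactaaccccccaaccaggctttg
The regions in an intron of Spata21 (chr4:141098856-141099155) and between genes near Rassf8 (chr6:145723545-145723844) had the largest decreases in LyzM-Cre Egr2 fl/fl macrophages.
Spata21: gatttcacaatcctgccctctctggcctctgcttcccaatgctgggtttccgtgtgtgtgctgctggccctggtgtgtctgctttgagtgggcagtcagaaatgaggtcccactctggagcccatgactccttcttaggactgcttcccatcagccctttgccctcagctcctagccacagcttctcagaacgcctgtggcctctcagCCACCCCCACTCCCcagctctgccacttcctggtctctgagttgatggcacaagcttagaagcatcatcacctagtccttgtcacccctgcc
Rassf8: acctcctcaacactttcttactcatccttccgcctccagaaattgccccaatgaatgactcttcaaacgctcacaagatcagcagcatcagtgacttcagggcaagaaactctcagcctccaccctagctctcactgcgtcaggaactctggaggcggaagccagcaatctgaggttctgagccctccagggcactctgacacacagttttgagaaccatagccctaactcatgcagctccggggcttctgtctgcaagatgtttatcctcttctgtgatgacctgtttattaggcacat
The Rnase2a window held 1 C/EBP match, the Bhlhe40 and Pcnx4 windows 1 STAT6 match each, the Lclat1 window 1 STAT6 and 1 KLF match, and the Spata21 window 1 loose EGR match that overlapped 2 KLF matches. No letters of the 7 motifs were in the St8sia1 and Rassf8 windows.

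Across members the median H3K27ac mean was 7.75 tags in basal cells, 8.99 at 1 h, 14.7 at 6 h and 29.3 at 24 h. The median fold was 3.33 at 24 h, 2.01 at 6 h and 1.13 at 1 h, so a typical member was below the rule at 6 h rather than unmoved. At 6 h, 422 members were already at 2-fold or more, and 155 were at 2.5-fold or more with both means under 16 tags. In 65 members the 6 h mean lay under the basal mean. At 24 h, 186 members were at 5-fold or more and 35 at 10-fold or more. Both 24 h libraries lay above both basal libraries in 747 members, against 20.3% of all regions, and above all 6 other libraries in 416. From this same contrast the members were chosen, so nothing is read from these counts.

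The 2 libraries at 24 h did not carry equal weight. The median member had 6.78 and 8.56 tags in the basal libraries, 9.28 and 7.57 at 1 h, 13.1 and 16.4 at 6 h, and 22.1 in replicate 1 and 38.7 in replicate 2 at 24 h. Medians over all regions were 16.98 and 18.4 tags in the same 24 h libraries, both of which the rule had used. Replicate 2 exceeded replicate 1 in 687 of 836 members. Without replicate 2 the rule gave 649 regions, of which 355 (42.5% of members) were among the 836, and without replicate 1 it gave 1680, of which 759 were shared. Some results below are also given for the 355 members that met the rule on replicate 1 alone. In the second 1 h library 20.5% of tags lay in regions, against 41.2% to 69.7% in the other H3K27ac libraries. Of the members, 11 lay on the mitochondrial genome, with a median of 251 tags in 24 h replicate 2 and 2.14 to 54.4 in the other libraries, and 19 lay nearest Sfi1, with medians of 23.8 and 28.5 in basal cells, 0.77 to 8.61 at 1 h and 6 h, and 75.6 and 84.7 at 24 h. Counts for Pol II, H3K4me2 and H3K27ac in the strains are also given without these 30 regions.

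**Figure D1:**
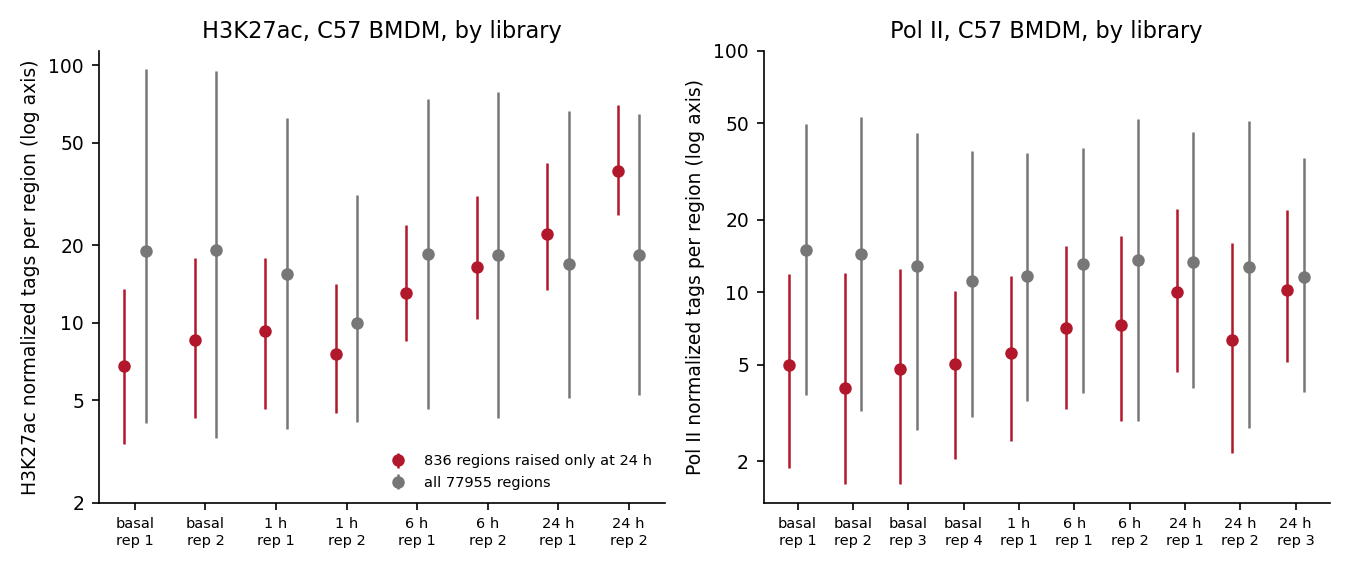
Normalized tags (log axis) of the members in each C57BL/6J library of H3K27ac and Pol II, with points at the median and bars from the lower to the upper quartile, beside the same for all regions. Member medians of H3K27ac rose from 6.78 and 8.56 in basal cells to 22.1 and 38.7 at 24 h, while the all-region medians were 16.98 and 18.4 at 24 h.

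Near the limits of the rule, the member nearest Gmppb had a 24 h fold of 2.5014 and that nearest Rnase2b of 2.506, while the regions nearest 1600014C23Rik and Tacc2 stayed outside at 2.49952 and 2.49748. By tags, the member nearest Gm10073 had a larger mean of exactly 16 and the region nearest Cemip stayed outside at 15.98. By the 6 h limit, the member nearest Tmem158 had a 6 h fold of 2.49818 and a 24 h fold of 3.36, and the region nearest Srgn was left out at a 6 h fold of 2.50167 and a 24 h fold of 2.83. Regions on either side of each limit thus had nearly the same values.

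The largest H3K27ac ratios were seen at regions that were almost empty in basal cells. In the intron of Pcnx4, H3K27ac was 0 and 2.14 tags in basal cells, 6.18 and 3.44 at 1 h, 9.24 and 15.2 at 6 h, and 27.2 and 72.9 at 24 h, a ratio of 24.6. At the region 3948 bp from the start of Pfkp, a glycolytic phosphofructokinase, it was 1.36 and 0 in basal cells and 33.95 and 40.7 at 24 h, a ratio of 22.8. The groups did not overlap at either region, and the 6 h values of 12.3 and 18.3 at Pfkp lay between them. In the St8sia1 intron it was 1.36 and 0.71 in basal cells, 13.9 and 10.3 at 1 h, 19.3 and 10.4 at 6 h and 35.7 and 34.1 at 24 h, a ratio of 17.6. The other ratios named by the same rule were 19.7 near Eif2b2, 18.8 in Patj, 14.3 in Slamf1, which encodes a receptor of immune cells, 14.1 for a second region near Rnase2a and 14 near Rmi2. Of these 8, the St8sia1 region also had a called Pol II increase (log2 2.36 ± 0.52, SE, limma adjusted p 0.0439), which, like all Pol II calls at 24 h, was lost without 24 h replicate 1.

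Pol II, which the rule did not use, rose at 28 of 836 members between basal cells and 24 h (limma on log2 of tags plus 1, Benjamini-Hochberg adjusted over all 77955 regions), against 0.503% of all regions. No member was called lower by limma, against 0.174% of all regions, with 228 members at an unadjusted p under 0.05 in the higher and 2 in the lower direction. On whole reads recovered from the tags, edgeR called 32 higher and DESeq2 47 higher and 1 lower, and with the replicate number as a block limma called 70 higher. The shares that these alternative fits called over all regions were not counted. The median log2 change was 0.72 over the members and −0.02 over all regions, and 87.9% of members lay above 0. Of the 355 members that met the rule on replicate 1 alone, 23 were called, and all 28 calls lay outside the mitochondrial and Sfi1 regions. In 171 members all 3 libraries at 24 h exceeded all 4 basal libraries, against 3.67% of all regions. Library by library, the member median of Pol II was 4.01 to 5.06 tags in the 4 basal libraries, 5.59 in the single 1 h library, 7.12 and 7.31 at 6 h, and 10.0, 6.37 and 10.3 at 24 h. The lowest 24 h library therefore lay below both 6 h libraries. The count rested on single libraries: without 24 h replicates 1 and 2 it was 0 and 7, without basal replicates 1 to 4 it was 46, 11, 10 and 12, and without 6 h replicates 1 and 2 it was 15 and 16, and without 24 h replicate 3 it was 19.

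For Pol II the increase was not confined to 24 h. At 6 h against basal, 8 members were called higher, against 0.428% of all regions, with a median log2 change of 0.53. All 8 were also among the 28 called at 24 h. A further 5 members were lower at 6 h, against 0.137% of all regions, and all 5 lay on the mitochondrial genome. The count at 6 h was 4 without 24 h replicate 1 or 2, 0 without 6 h replicate 1 or 2, and 28, 3, 2 and 2 without basal replicates 1 to 4, while the count of lower regions was 0 without 24 h replicate 1, 6 h replicate 1 or basal replicate 2 or 4, 3 without 24 h replicate 2 or basal replicate 3, and 22 without basal replicate 1. Between 6 h and 24 h no member was called in either direction by limma, against 0% of all regions in each, with 41 members higher and 4 lower at an unadjusted p under 0.05. Without 6 h replicate 2, 8 were higher. The median log2 change from 6 h to 24 h was 0.18 in members, −0.34 in the 902 regions that met the H3K27ac rule at 1, 6 and 24 h, and −0.51 in the 1684 that met it only at 6 h. By the fold rule of 2.5 with at least 8 Pol II tags, 109 members qualified at 24 h, against 1.79% of all regions, and 72 at 6 h, against 2.52%. Both times were met by 54 members, so 55 of the 109 met it at 24 h alone.

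The largest Pol II changes showed how unequal the libraries were. At the start of Rnase2a, Pol II was 0, 0, 0.54 and 1.01 tags in basal cells, 2.03 at 1 h, 1.1 and 11.2 at 6 h, and 52.7, 3.64 and 32.1 at 24 h. All 3 libraries at 24 h lay above the basal ones, although 24 h replicate 2 lay below one of the 6 h libraries. The log2 change was 3.93 ± 0.75 (SE, n = 3 and 4, limma adjusted p 0.0212). At the region near Bhlhe40, Pol II was 41.8, 33.7, 9.65 and 13.2 tags in basal cells, 57.9 at 1 h, 133 and 356 at 6 h, and 305, 138 and 142 at 24 h. Its log2 change was 3.07 ± 0.50 (SE, limma adjusted p 0.00815) at 24 h and 3.33 at 6 h (limma adjusted p 0.0132), so Pol II there was high at 6 h while H3K27ac, at 11.6 and 13.4 tags and a 6 h fold of 2.82, was past the fold of the rule but under its minimum of 16 tags. H3K27ac at that region was 5.43 and 2.14 tags in basal cells and 23.8 and 17.1 at 24 h. Called increases were also seen near Ksr2, a scaffold of Ras signalling (log2 3.06), Alx4, a homeobox gene (2.88), Klhl33 (2.77), Flt1, a receptor for vascular endothelial growth factor (2.72), Htr1f, a serotonin receptor (2.69), and Auh, a mitochondrial hydratase (2.56). Each of these 8 calls was lost when 24 h replicate 1 was left out, at log2 changes of 2.42 to 3.22. Those at Rnase2a, Alx4 and Flt1 were also lost without basal replicate 3, those at Rnase2a and Flt1 without basal replicate 2 or 24 h replicate 3, that at Rnase2a without basal replicate 4, and those at Alx4, Klhl33, Flt1 and Htr1f without 24 h replicate 2.

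**Figure D2:**
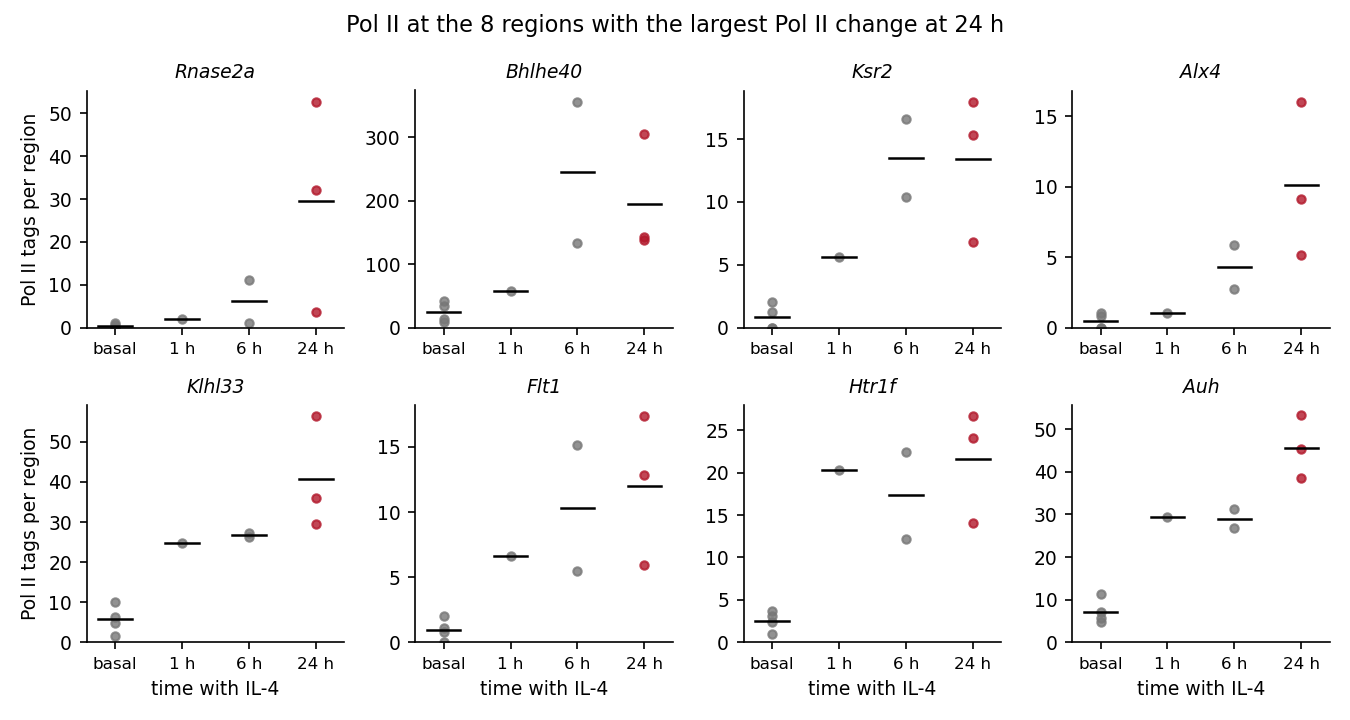
Pol II normalized tags of each C57BL/6J library (points, with bars at the mean) at the 8 members with the largest Pol II increase, by hours of IL-4, with linear axes that differ between panels. At Bhlhe40 the 6 h libraries (133 and 356 tags) lay on either side of the 24 h libraries (138 to 305), and at Rnase2a the 24 h libraries ran from 3.64 to 52.7.

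Lists of genes of the IL-4 response were read through the gene nearest each member, which need not be the gene a region acts on. Transcription factors of the response were nearest to 18 members at 9 genes, and 5 of these 18 rose in Pol II at 24 h while none was called lower. Of all regions nearest this list 23 of 645 rose, and of those raised at 1, 6 and 24 h 7 of 25. These were 2 regions of Irf4, 1 of Nfil3, 1 of Batf3 and 1 of Bhlhe40. Irf4 encodes a factor needed for alternative activation, Nfil3 and Batf3 encode leucine zipper factors. At the Irf4 start (chr13:30748739-30749739), H3K27ac was 11.5 and 17.1 tags in basal cells, 13.9 and 23.1 at 1 h, 43.1 and 30.4 at 6 h, and 44.1 and 53.8 at 24 h. Pol II there was 25.6, 23.3, 29.5 and 34.4 in basal cells, 34.02 at 1 h, 37.8 and 54.6 at 6 h, and 85.4, 75.5 and 85.9 at 24 h. The 24 h libraries lay above all others, with a log2 change of 1.52 ± 0.33 (SE, limma adjusted p 0.04). The call was lost when any one basal, 6 h or 24 h library was left out except basal replicate 1. The calls at the Irf4 exon and Batf3 were likewise lost in 9 and 7 of these 9 fits. At the region 18538 bp from the Nfil3 start, H3K27ac was 19 and 19.97 in basal cells, 19.33 and 19.97 at 1 h, 30.8 and 54.2 at 6 h, and 104 and 142 at 24 h, and Pol II rose by 2.46 ± 0.38 (SE, limma adjusted p 0.00529). It was not called without 24 h replicate 1, at a log2 change of 2.24. The regions nearest Klf4, Klf6, Nab1 (a corepressor that binds EGR proteins), Ppargc1b (a coactivator of mitochondrial genes) and Runx1 had log2 changes of Pol II from −0.23 to 2.13, none called.

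Effector genes of alternative activation were nearest to 15 members at 8 genes, and 1 of the 15, the Flt1 intron, rose in Pol II, against 31 of 239 of all regions nearest this list and 10 of the 20 raised at 1, 6 and 24 h. Ccl17, a chemokine gene, had H3K27ac of 3.39 and 3.57 tags in basal cells, 1.55 and 1.72 at 1 h, 1.54 and 8.52 at 6 h and 13.6 and 24.9 at 24 h, with a Pol II log2 change of 0.06. Near Mgl2, a lectin gene, H3K27ac was 6.78 and 12.1 in basal cells and 30.6 and 46.6 at 24 h. Ocstamp, a gene of osteoclast and giant cell fusion, had 4 members, 1 of them at its start, with Pol II log2 changes of 0.76 to 1.67, none called. The 2 members near Pdcd1lg2, which encodes the checkpoint ligand PD-L2, had Pol II log2 changes of 2.2 and 2.54 (limma adjusted p 0.0662 and 0.0991). The list of IL-4 receptor signalling held 2 members, near Jak2, a Janus kinase, and at the start of Socs2, a suppressor of cytokine signalling, and the Socs2 region rose. Of all regions nearest this list 9 of 344 rose, and of those raised at 1, 6 and 24 h 8 of 27. At Socs2, H3K27ac was 8.14 and 7.13 in basal cells, 17.01 and 14.1 at 1 h, 19.3 and 13.4 at 6 h and 56.9 and 34.8 at 24 h, and Pol II rose by 2.47 ± 0.45 (SE, limma adjusted p 0.0168). Its call was lost without 24 h replicate 1 or 2 or without basal replicate 3 or 4, at log2 changes of 2.31 to 2.51. No member of the lists of fusion and adhesion (9 members), chemokines and growth factors (6), lipid handling (2) or inflammatory genes (2) was called in Pol II by limma, with median log2 changes of 1.33, 1.22, 1.5 and 0.50. Of all regions nearest these lists, 9 of 194, 2 of 244, 1 of 191 and 1 of 236 were higher, and 0, 7, 0 and 12 lower. With so few members, nothing is read from the lack of calls.

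Members clustered at some genes. There were 636 nearest genes, of which 134 had 2 or more members, and 212 members had another within 10000 bp, so neighbouring members share tags of the same domain and are not independent. After Sfi1, the gene with most members was Il6st, which encodes gp130, the shared receptor chain for interleukin-6 type cytokines. Its 6 members spread from chr13:112413304 to chr13:112517282, with H3K27ac means of 1.38 to 49.8 tags in basal cells and 16.2 to 162 at 24 h. Pol II log2 changes there were 0.57 to 1.90, and 1 of the 6 was called (limma adjusted p 0.0331). Mad1l1, a mitotic checkpoint gene, and Nek6, a mitotic kinase gene, had 5 members each, none called in Pol II.

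Other promoter and enhancer marks were counted in basal and 24 h cells at the 687 members with a region centre within 500 bp in that table. Dimethylation of H3 lysine 4 (H3K4me2), found at enhancers and promoters, rose at 25 of the 687 (limma), against 0.179% of all regions, at 15 of 660 without the mitochondrial and Sfi1 regions, and at 13 of the 280 that met the rule on replicate 1 alone. The median log2 change was 0.25 in members and −0.69 in all regions, a shift of the whole table that scaling by median ratio removed (0.92 and −0.01, with 35 members called). Member medians were 20.4 and 23.2 tags in basal cells and 29.4 and 22.7 at 24 h, so these library groups overlapped. The count was 49 and 0 without 24 h replicates 1 and 2, and 16 and 8 without basal replicates 1 and 2. Trimethylation of H3 lysine 4 (H3K4me3), a promoter mark, was called at none of the 687 by limma, against 0% of all regions, with 228 at an unadjusted p under 0.05 in the higher direction. Its member medians were low, 1.46 and 0.98 tags in basal cells and 3.67 and 3.90 at 24 h, and its median log2 change was 1.00 against 0.11 in all regions.

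Most members were distal. Introns held 404 (48.3%, against 43.5% of all regions), intergenic sequence 357 (42.7% against 32.8%) and promoters 24 (2.87% against 16.1%), with the rest at gene ends, exons, UTRs and non-coding genes. The median distance to a gene start was 30674 bp in members and 14788 bp over all regions. An open chromatin peak had been called in basal cells at 60.5% of members (72.1% of all regions), and only at 24 h at 72 members (8.61% against 7.74%). Opening of chromatin that was called only at 24 h was thus about as frequent in members as in the table.

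Transcription factor peaks were compared by overlap of at least 1 bp with the regions, from 1 reproducible list per factor and time. STAT6 peaks overlapped 22.5% of members in basal cells, 30.9% at 1 h, 39.4% at 6 h and 76.0% at 24 h, against 36.4%, 29.3%, 30.5% and 44.4% of all regions. Regions that met the H3K27ac rule at 1, 6 and 24 h had STAT6 shares of 72.5% at 1 h, 71.7% at 6 h and 77.7% at 24 h, and regions that met it only at 6 h had 37.6%, 40.3% and 42.2%. The share in members was thus close to that of the early and lasting regions at 24 h and lower at 1 h and 6 h. EGR2 peaks overlapped 17.2%, 27.3%, 32.1% and 56.8% of members at basal, 1 h, 6 h and 24 h, against 11.6%, 18.2%, 17.1% and 35.3% of all regions. At 24 h against basal, PPARg peaks overlapped 55.0% against 6.70% of members, PU.1 peaks 73.6% against 48.7% and C/EBPb peaks 51.7% against 16.9%. The corresponding shares of all regions were 37.3% and 8.28% for PPARg, 65.1% and 62.3% for PU.1 and 38.01% and 20.8% for C/EBPb. In regions raised at 1, 6 and 24 h the 24 h shares were 48.2% (EGR2), 50.8% (PPARg), 74.7% (PU.1) and 59.1% (C/EBPb). The lists differed in length, from 7627 PPARg peaks in basal cells to 39088 at 24 h and from 8437 to 29407 for EGR2. With the basal and 24 h lists of a factor cut to equal length by score, the 24 h share of members was 23.9% for EGR2, 16.4% for PPARg, 67.9% for STAT6, 72.4% for PU.1 and 32.1% for C/EBPb, against 11.6%, 8.88%, 36.2%, 63.7% and 21.2% of all regions.

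At 24 h, 587 members (70.2%) had peaks of 3 or more of the 5 factors, against 42.8% of all regions, and 49 (5.86%) had none, against 19.2%. Regions raised at 1, 6 and 24 h had nearly the same shares, 68.7% and 5.88%, so these were not particular to members. Regions raised only at 6 h had 41.4% and 18.1%. EGR2 and STAT6 peaks were both present at 415 members (49.6% against 22.95%), and 458 members (54.8% against 14.8%) had a STAT6 peak at 24 h and none in basal cells. In regions raised at 1, 6 and 24 h these shares were 40.1% and 59.1%, and in those raised only at 6 h 26.4% and 29.7%. Among the 355 members that met the rule on replicate 1 alone, the 24 h shares were 74.9% for STAT6, 48.2% for EGR2, 49.9% for PPARg, 74.6% for PU.1 and 49.0% for C/EBPb. All 5 exceeded the shares of all regions. None exceeded those of regions raised at 1, 6 and 24 h, which were 77.7%, 48.2%, 50.8%, 74.7% and 59.1% in the same order. In regions raised only at 6 h they were 42.2%, 46.1%, 34.3%, 54.3% and 44.8%.

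**Figure D3:**
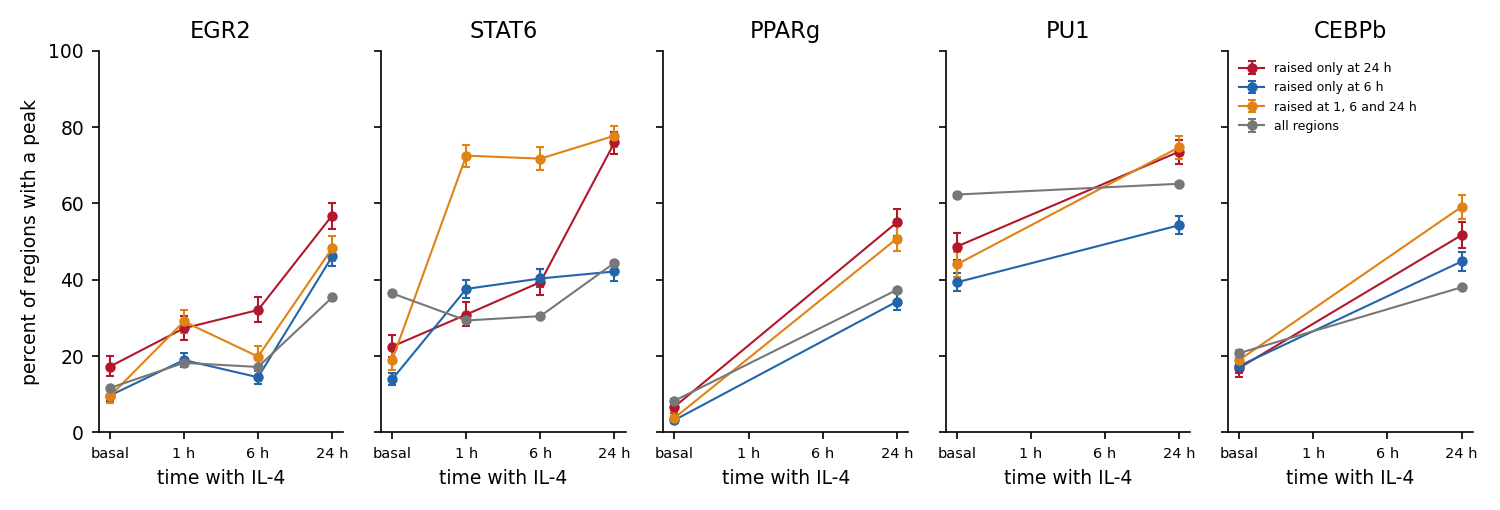
Percent of members, of regions raised only at 6 h, of regions raised at 1, 6 and 24 h and of all regions that overlap a peak of each factor, by hours of IL-4, with exact binomial 95% intervals. STAT6 overlap of members went from 30.9% at 1 h to 76.0% at 24 h, while that of regions raised at all 3 times was 72.5% and 77.7%.

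In the central 300 bp, the STAT6 letters were found in 18.1% of members, in 8.77% of all regions and in 42.1% of the regions raised at 1, 6 and 24 h. The loose EGR letters were found in 20.8% of members, in 12.4% of all regions and in 11.8% of the regions raised at all 3 times, and the strict EGR letters in 5.14%, 4.04% and 2.55%. Over the whole 1000 bp the strict letters were in 8.73% of members and 9.78% of all regions. Loose EGR and KLF matches overlap in sequence, and both were in 5.14% of members and 4.69% of all regions. AP-1 letters were in 24.2% of members and 19.6% of all regions, C/EBP letters in 18.9% and 15.9%, PU.1 letters in 10.3% and 9.54%, and KLF letters in 13.4% and 13.9%. AGGTCANAGGTCA, the repeat that PPARg and its partner bind, was in 0 of 836 members and in 0.0539% of all regions. Members were 48.7% G and C at the median in this window, and all regions 51.0%. These matches are counts of letters and were not tested against binding.

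The other 4 strains gave replicates of the 24 h contrast that the rule had not used. They had no 1 h or 6 h libraries, so the late timing of members could not be looked at there. Regions were matched by centres within 500 bp, and 591 members had a match in BALB, 662 had one in NOD, 568 in PWK and 380 in SPRET. The H3K27ac fold rule was met by 230 members in BALB (38.9%, against 2.84% of all regions), by 338 in NOD (51.1%, against 3.24%), by 173 in PWK (30.5%, against 3.1%) and by 96 in SPRET (25.3%, against 2.64%). In the same order of strains, the median log2 change by limma was 1.33, 1.46, 1.07 and 0.94 over members and −0.30, −0.20, −0.18 and −0.09 over all regions. Of the members that met the rule in C57BL/6J on replicate 1 alone, 50.4%, 58.6%, 32.9% and 26.9% met it in BALB, NOD, PWK and SPRET. The BALB count was 365 with scaling by median ratio and 141 with a pseudocount of 5. Without the mitochondrial and Sfi1 regions the rule was met by 221 of 567 members in BALB, 326 of 637 in NOD, 168 of 541 in PWK and 96 of 371 in SPRET, and limma called 99, 0, 14 and 45. The differences between strains were not tested. Without basal replicate 2 the count was 290 in PWK and 151 in SPRET, and without 24 h replicate 2 it was 214 in NOD and 106 in PWK.

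By limma, H3K27ac rose at 107 members in BALB (against 1.6% of all regions), 14 in PWK (0.487%) and 45 in SPRET (0.994%). In NOD none was called, against 0.0566% of all regions, although 346 of 662 were higher and none lower at an unadjusted p under 0.05. Deviations of same-numbered NOD libraries correlated at 0.492. The fit with replicate number as block, given at the end, did call members in NOD, but its share over all regions was not counted. Member medians in NOD were 9.14 and 11.5 tags in basal cells and 24.2 and 39.4 at 24 h, with the 24 h replicates far apart. In BALB they were 10.3 and 12.5 against 29.4 and 27.6, in PWK 10.3 and 19.6 against 27.6 and 46.8, and in SPRET 16.2 and 21.7 against 44.1 and 46.3. In each strain both 24 h medians exceeded both basal medians. With 2 libraries a group, the limma counts moved with single libraries. In BALB they were 58 and 43 without 24 h replicates 1 and 2 and 34 without basal replicate 1. In NOD they were 69 and 153 without basal replicates 1 and 2. In PWK they were 0 without either 24 h replicate, 33 and 138 without basal replicates 1 and 2. In SPRET they were 0 without either 24 h replicate, 6 and 18 without basal replicates 1 and 2.

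**Figure D4:**
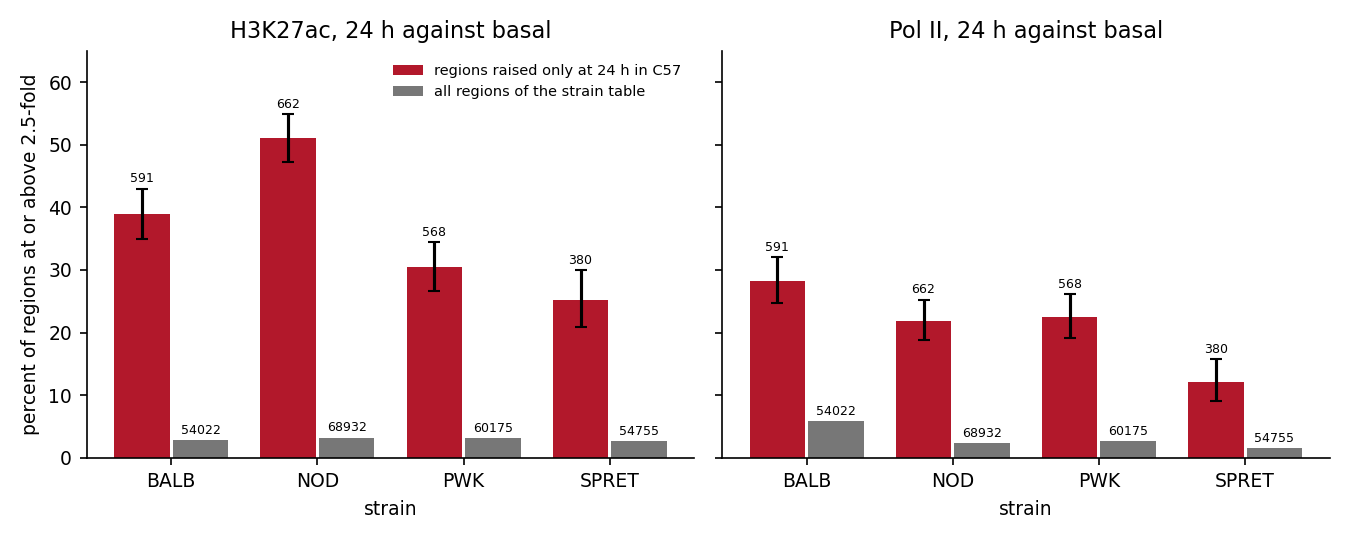
Percent of matched members that met the 24 h fold rule for H3K27ac and for Pol II in BALB, NOD, PWK and SPRET, beside the same for all regions of each table (number of regions above each bar), with exact binomial 95% intervals on the members that cover counting error only. Members lay between 25.3% and 51.1% for H3K27ac and all regions between 2.64% and 3.24%.

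Pol II in the strains went the same way. Its fold rule was met by 167 members in BALB (28.3%, against 5.91% of all regions), 145 in NOD (21.9%, against 2.35%), 128 in PWK (22.5%, against 2.66%) and 46 in SPRET (12.1%, against 1.54%). Matched regions raised at 1, 6 and 24 h in C57BL/6J met it at 55.8%, 47.1%, 44.8% and 32.6%. Those raised only at 6 h met it at 20.2%, 7.98%, 9.49% and 3.20%. Of the members that met the H3K27ac rule on replicate 1 alone, 35.8%, 27.6%, 28.9% and 17.3% met it in these 4 strains. By limma, Pol II rose at 27 members in BALB (against 0.663% of all regions), 54 in PWK (1.44%) and 20 in SPRET (0.782%), and at none in NOD (0%), where 215 were higher and 1 lower at an unadjusted p under 0.05. A fit with replicate number as block gave 197 calls for PWK and 76 for SPRET, and its shares over all regions were not counted. Deviations of same-numbered NOD libraries correlated at 0.368, and the block count for NOD is given at the end. In BALB the whole table shifted up by 0.32 (log2), and with scaling by median ratio 110 members met the fold rule and 1 was called by limma. Leaving out single libraries gave 0 to 15 calls in BALB, with 0 without basal replicate 3, 5 without 24 h replicate 2, 10 without 24 h replicate 1, and 11 and 15 without basal replicates 1 and 2. In PWK it gave 5 and 11 without 24 h replicates 2 and 3 and 16 and 9 without basal replicates 2 and 3, and in SPRET 2, 4 and 8 without 24 h replicates 1 to 3 and 5 and 3 without basal replicates 1 and 3.

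Of the 278 members matched in all 4 strains, 80 met the H3K27ac rule in none, 66 in 1, 76 in 2, 39 in 3 and 17 in all 4. The same count was not made over all regions, so these numbers are a description of the members only. The St8sia1 intron had the largest mean over the strains, a log2 change of 3.54. Its H3K27ac was 2.2 and 2.38 tags in basal BALB against 45.9 and 30.0 at 24 h, 0 and 1.59 against 34.7 and 27.6 in NOD, 5.15 and 5.48 against 80.8 and 81.1 in PWK, and 27.4 and 16.5 against 201 and 102 in SPRET. Basal and 24 h values did not overlap in any strain, and limma called it in BALB (adjusted p 3.5e-07), PWK (0.0059) and SPRET (0.0037) but not in NOD (0.054). Near Gtf3c5, a subunit gene of transcription factor IIIC, the mean log2 change was 2.49, and the Pol II fold rule was also met in all 4 strains. Its H3K27ac in C57BL/6J was 5.43 and 5.70 tags in basal cells, 8.5 and 2.75 at 1 h, 13.1 and 14 at 6 h and 20.4 and 63.0 at 24 h. Both fold rules were likewise met in all 4 strains at the region 26160 bp from the Batf3 start (mean log2 2.15) and near Lrrc32, which encodes GARP, a carrier of latent transforming growth factor (2.10). Near Il6st the mean was 2.2, in a Jak1 intron 2.35 and in Itpk1 2.08. At Lclat1 the mean was 2.52, but the replicates were far apart at 24 h, as 8.28 and 30.97 tags for BALB, 10.9 and 32.1 for NOD, 12.8 and 47.7 for PWK, 23.8 and 38.8 for SPRET and 6.79 and 52.5 for C57BL/6J. Replicate 2 was the higher in each.

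Egr2 genotypes were compared at 145 members that had one of the 4677 EGR2 sites of that table within 500 bp. The authors had taken these sites as EGR2 peaks induced at 24 h, and scaling by median ratio therefore centres the change over such sites. At 24 h of IL-4, H3K27ac was lower in LyzM-Cre Egr2 fl/fl than in Egr2 fl/fl at 83 of the 145 (57.2%, limma), against 23.2% of all sites, and higher at none, against 1.41%. The median log2 difference was −1.33 in members and −0.50 over all sites. Member medians were 29.2 and 31.5 tags in Egr2 fl/fl and 9.35 and 10.5 in LyzM-Cre Egr2 fl/fl at 24 h, and 10.2 and 8.15 against 7.02 and 7.29 in basal cells. Both LyzM-Cre libraries lay under both Egr2 fl/fl libraries in 117 of the 145, against 51.7% of all sites. With scaling by median ratio the median was −0.82 in members and −0.03 over all sites, 43 members were lower and 3 higher, and over all sites 496 were lower and 536 higher, in place of 1087 and 66. The count was 35 and 26 without Egr2 fl/fl 24 h replicates 1 and 2, and 48 without LyzM-Cre 24 h replicate 1. Among the 60 members here that met the rule on C57BL/6J replicate 1 alone, 35 were lower. Of the regions raised at 1, 6 and 24 h, 54 of 195 were lower (27.7%), and of those raised only at 6 h, 92 of 174 (52.9%).

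In basal cells no member differed by genotype in the lower direction (limma, against 0.192% of all sites), with 25 lower and 2 higher at an unadjusted p under 0.05. The count was 2 without basal LyzM-Cre replicate 2. IL-4 raised H3K27ac at 94 of the 145 in Egr2 fl/fl, against 25.6% of all sites, and at 33 in LyzM-Cre Egr2 fl/fl, against 14.4%. With scaling by median ratio, 59 rose and 1 fell in Egr2 fl/fl, and 30 rose and 3 fell in LyzM-Cre Egr2 fl/fl. Over all 4677 sites this scaling gave 639 higher in Egr2 fl/fl and 576 in LyzM-Cre Egr2 fl/fl. Without 24 h replicates 1 and 2 of Egr2 fl/fl the counts in that genotype were 54 and 48. The difference between the IL-4 changes was itself tested as an interaction, which called no member (limma, against 0% of all sites), with 45 lower and none higher at an unadjusted p under 0.05. It called 9 with a pseudocount of 5 and 2 without LyzM-Cre 24 h replicate 2. The smaller response in LyzM-Cre Egr2 fl/fl, seen as a smaller log2 change in 113 of 145 members (22.1% of members and 33.3% of all sites lay above 0), did not therefore pass the test of that difference site by site.

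The largest differences were at sites nearly empty in LyzM-Cre Egr2 fl/fl. In the Spata21 intron, H3K27ac was 36.2 and 42.4 tags in Egr2 fl/fl at 24 h and 12.8 and 4.75 in basal cells, against 0 and 1.74 at 24 h and 1.0 and 3.36 in basal cells of LyzM-Cre Egr2 fl/fl, a log2 difference at 24 h of −4.60 ± 0.64 (SE, n = 2 and 2, limma adjusted p 0.00023). EGR2 tags at this site in C57BL/6J were 24.4 and 21.5 in basal cells, 3.61 and 24.1 at 1 h, 38.4 and 40.8 at 6 h and 88.0 and 40.3 at 24 h. Near Rassf8, a Ras-association gene, H3K27ac was 27.1 and 18.6 tags in Egr2 fl/fl and 1.04 and 0.58 in LyzM-Cre Egr2 fl/fl at 24 h, and 1.7 and 2.04 against 0 and 0 in basal cells, a difference at 24 h of −3.71 ± 0.59 (SE, limma adjusted p 0.0005). In Pde4a, a phosphodiesterase of cyclic AMP, the difference was −3.63, in Vill −3.24 and near Ffar4, a receptor for long-chain fatty acids, −3.04. Near Ffar4, H3K27ac was 32.2 and 41.8 against 3.12 and 4.06 tags at 24 h, and 5.96 and 2.72 against 2.01 and 2.24 in basal cells. Members of the IL-4 lists that were lower included Matk (−2.55), Ppargc1b (−2.13), Ocstamp (−1.97) and the region 38935 bp from the Irf4 start (−1.66). The largest differences in the other direction were 0.49 near Hlx, a homeobox gene, and 0.41 near Rnf19b, an E3 ligase gene, and neither was called (limma adjusted p 0.12 and 0.11), while both were called with median-ratio scaling, at 1.03 and 0.95.

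**Figure D5:**
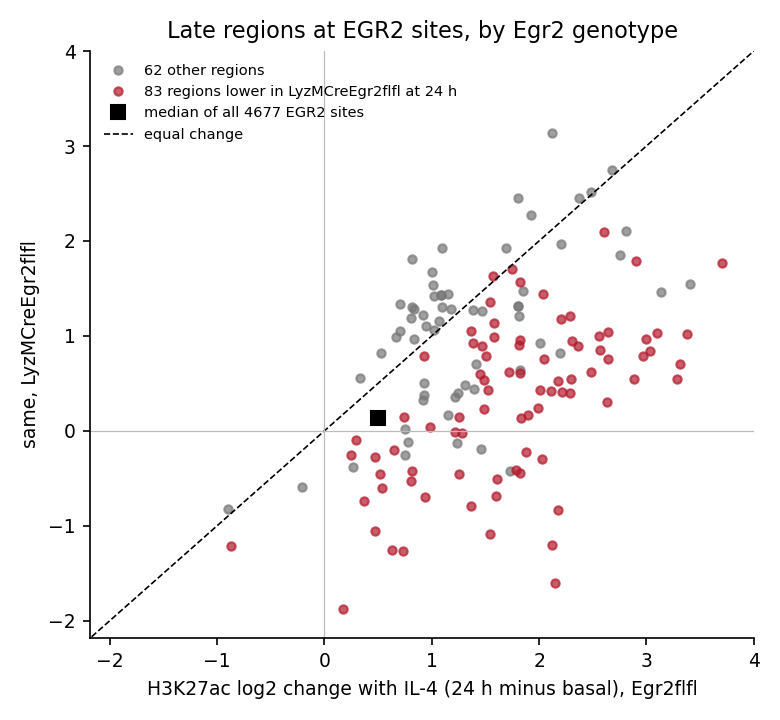
Log2 change of H3K27ac with 24 h of IL-4 in Egr2 fl/fl (horizontal) and LyzM-Cre Egr2 fl/fl (vertical) at the 145 members at EGR2 sites, 1 point a member, with the 83 lower by genotype at 24 h in red, the median of all sites as a square and equal change as a dashed line. In 113 of 145 members the point lies under the dashed line, and 22.1% of members and 33.3% of all sites lie above it.

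Other targets at these 145 members were lower in LyzM-Cre Egr2 fl/fl at 24 h as follows. H3K4me2 was lower at 38, against 8.94% of all sites, PU.1 at 36, against 9.36%, and C/EBPb at 28, against 8.25%. With scaling by median ratio the counts were 17, 21 and 0, so the C/EBPb calls depended on the scaling. Of the 60 members that met the rule on C57BL/6J replicate 1 alone, 13, 11 and 12 were lower. Member medians of PU.1 were 18.9 and 20.4 tags in Egr2 fl/fl and 7.80 and 8.08 in LyzM-Cre Egr2 fl/fl at 24 h, and 7.65 and 8.34 against 6.75 and 6.50 in basal cells. STAT6 was called lower at no member (limma, against 0.0214% of all sites), with 52 lower at an unadjusted p under 0.05 and a median log2 difference of −1.33 against −0.79 over all sites. PPARg was called at none (limma, against 0%), with 34 lower at an unadjusted p under 0.05, and its medians were 7.17 and 14.2 tags against 2.09 and 0. IL-4 raised STAT6 at 34 of the 145 in Egr2 fl/fl, against 11.8% of all sites, and at 3 in LyzM-Cre Egr2 fl/fl, against 1.2%, and by median ratio at 5 and 2. Pol II had 1 library a group in these genotypes, with member medians of 9.36 and 3.99 tags at 24 h and 4.17 and 3.25 in basal cells, and no test. The H3K4me2 count was 14 and 10 without Egr2 fl/fl 24 h replicates 1 and 2 and 16 without LyzM-Cre 24 h replicate 1. For PU.1 it was 0 without either Egr2 fl/fl 24 h replicate, 6 and 22 without LyzM-Cre 24 h replicates 1 and 2, and for C/EBPb it was 0 without either Egr2 fl/fl 24 h replicate, 8 and 0 without LyzM-Cre 24 h replicates 1 and 2. For PPARg it was 13 and 10 without Egr2 fl/fl 24 h replicates 1 and 2.

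EGR2 tags were counted in C57BL/6J at the 467 members with an EGR2 site of the time course within 500 bp. Member medians were 26.2 and 26.9 tags in basal cells, 9.94 and 28.9 at 1 h, 29.7 and 50.9 at 6 h, and 68.2 and 44.2 at 24 h. The 24 h libraries lay above the basal ones, and 1 of the 6 h libraries lay above 24 h replicate 2. Limma called no member higher at 1 h, 6 h or 24 h, against 0% of all sites each time, with 4, 42 and 65 members higher and 34, 0 and 0 lower at an unadjusted p under 0.05. The median log2 change at 24 h was 0.98 in members and 0.66 over all sites, and 0.33 and 0.02 with scaling by median ratio. At 24 h the count was 4 and 7 without 1 h replicates 1 and 2 and 3 without either 6 h replicate, at 6 h it was 3, 8 and 1 without 1 h replicates 1 and 2 and 6 h replicate 1, and at 1 h it was 1 without 1 h replicate 2.

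The labelled cell type was checked by H3K27ac at gene starts. All 10 macrophage markers had a region at their start with at least 16 tags, with a median highest value of 498.5 tags. Of the markers of other cells, 2 of 4 T, B and NK genes with a region at the start reached 16 tags (Klrb1c and Ms4a1), as did S100a8 of neutrophils and Batf3 of dendritic cells, and no fibroblast or endothelial gene did. Members included 3 regions near Batf3, 1 near the endothelial gene Pecam1 and none near the markers of T, B or NK cells or of neutrophils, and the part of other cells in the results was not tested. Across the 123 libraries used, totals ran from 4691644 to 29050468 tags. The authors describe their ChIP replicates as biological. Neither they nor the labels say that libraries of a group came from separate animals. The p-values thus measure the spread between these libraries, which need not be that between animals.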

How the data were processed

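Groups came from the labels. The authors aligned reads to strain genomes (bowtie2), shifted them to mm10 and counted tags with HOMER. The deposited signal values are tags in a region per 10000000 in the library, beside open chromatin peaks and reproducible peak lists. Multiplying by the library total gave whole reads (within 0.05 reads for 100% of the Pol II time-course values), on which edgeR 4.0.16 and DESeq2 1.42.0 were run as alternatives. The deposited score of a peak ranked peaks in lists of equal length. Scaling to the library total leaves differences in the share of tags in regions uncorrected, so median-ratio scaling was an alternative. The tables held 4 further tag columns that matched no sample and were not used.

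Members were found by the rule on replicate means with a pseudocount of 1. The members and gene lists were chosen with earlier results of these data known. Fits used limma 3.58.1 in R 4.3.3 (eBayes with trend) on log2(tags + 1), which understates changes of low regions, with Benjamini-Hochberg adjustment over all regions of a table and a threshold of 0.05. Time-course fits held all times, genotype fits all 4 groups and strain fits 1 strain. Strain regions and EGR2 sites were matched to members by centres within 500 bp. Regions named in the text were the 8 with the largest Pol II change, the 8 with the largest H3K27ac ratio without overlap of libraries, up to 8 that met the rule in all 4 strains, the 6 largest decreases and 2 largest increases by genotype, those nearest genes of 3 lists, those at the limits, and the 3 genes with most members, with 1 region a gene in the first 4 sets. A single region of these sets is not reported here. Sequences and motif matches were read from mm10. The fits were tested on simulated data. At 4-fold, limma recovered 0% for H3K27ac in NOD and for EGR2 tags at 24 h, and 1% for H3K27ac in BALB. It recovered 38% for Pol II at 24 h in C57BL/6J. By Egr2 genotype at 24 h, it recovered 47% for STAT6 and 100% for H3K27ac. The simulation gave all regions of a table the same dispersion and changed few of them, which differs from the data. For H3K27ac in BALB, limma called 107 members in the data. These recoveries therefore do not measure what the fits could find here. A limma count of 0 for H3K27ac in NOD or EGR2 tags at 24 h is not read as a lack of change. Same-numbered libraries deviated together in Pol II of PWK (correlations 0.202 to 0.469 over 3 pairs), SPRET (0.224 to 0.31) and C57BL/6J at 24 h against basal (0.109 to 0.226, where libraries of other numbers reached 0.361), so the block is given beside those results. Other comparisons had 2 such pairs, too few to judge, and their block counts are given at the end. Replicates differed by 1.251 to 14.85 in chi-square per degree of freedom over 68 pairs, so none was counted as 1 library. Intervals are exact binomial and cover counting error only. Figures were drawn with matplotlib 3.10.9 in Python 3.11.15.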

Additional observations from a re-analysis of the deposited data

Results flagged for a closer look

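Among 63 groups of 4 basal Pol II libraries at named members, 3 held a library far from the other 3, and chance alone sets apart about 1 in 20 such groups. At the Patj region the highest basal library had 0.54 tags and the others 0. At the Nfil3 region 4238 bp from its start the highest had 53.04 tags and the others 9.65 to 14.44. At the Klf4 region 123071 bp from its start the lowest had 0.54 tags and the others 3.04 to 3.21. None of these regions was called in Pol II at 24 h. In Pde4a, H3K27ac rose with IL-4 in both Egr2 fl/fl libraries and fell in both LyzM-Cre Egr2 fl/fl libraries taken by number. The interaction there was −3.748 (log2, limma adjusted p 0.143). Opposite directions in the genotypes were seen at 13 of 145 members at EGR2 sites. The share over all sites was not counted, so nothing is read from that number.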

How the results depend on the processing

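With 2 to 4 libraries a group, single libraries moved most counts. Over leave-one-out fits, the lowest and highest counts were 649 and 1680 members, and for Pol II 0 and 46 (24 h against basal, higher), 0 and 1 (lower), 0 and 8 (24 h against 6 h), 0 and 28 (6 h, higher) and 0 and 22 (6 h, lower). They were 0 and 49 for H3K4me2, and for H3K27ac by limma 34 and 86 (BALB), 0 and 153 (NOD), 0 and 138 (PWK) and 0 and 18 (SPRET), by fold 214 and 421 (NOD), 106 and 290 (PWK) and 88 and 151 (SPRET), and for Pol II by limma 0 and 15 (BALB), 5 and 53 (PWK) and 2 and 16 (SPRET). By Egr2 genotype they were 26 and 88 for H3K27ac at 24 h, 0 and 2 in basal cells, 48 and 99 for IL-4 in Egr2 fl/fl, 0 and 2 for the interaction, 10 and 41 for H3K4me2, 0 and 45 for PU.1, 0 and 28 for C/EBPb and 0 and 13 for PPARg, and for EGR2 tags 0 and 1 (1 h), 0 and 8 (6 h) and 0 and 7 (24 h).

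The rule gave 523 regions at 32 tags or more, 2527 with no minimum, and 355 members held without the second 24 h library. Other settings also changed which regions were members. Median-ratio scaling gave 1089 regions, of which 619 were members, and a pseudocount of 5 gave 687, of which 544 were. Folds of 2 and 3 gave 1110 and 677 regions, with 638 and 532 members. Without basal replicates 1 and 2 the rule gave 783 and 1172 regions, with 544 and 594 members. With a 1 h or 6 h library left out, 656 to 810 members stayed. DESeq2 called 47 higher and 1 lower in Pol II at 24 h and 17 higher and 3 lower at 6 h, where edgeR called 0 lower, a filter of 8 tags 1, a pseudocount of 5 2, and the regions without mitochondria and Sfi1 0. H3K4me2 gave 15 without those regions. A pseudocount of 5 gave fold counts of 141 for H3K27ac in BALB and, for Pol II, 80 (BALB), 77 (NOD), 69 (PWK) and 25 (SPRET), and limma counts of 9 for H3K27ac in NOD and 9 for the interaction. A fold of 2 gave 221 for Pol II in NOD and 83 in SPRET. Median-ratio scaling gave 365 by fold for H3K27ac and 110 by fold and 1 by limma for Pol II in BALB, 3 by limma for H3K27ac in PWK, 1 for Pol II in NOD, and by genotype 43 (H3K27ac), 59 (IL-4 in Egr2 fl/fl), 17 (H3K4me2), 21 (PU.1) and 0 (C/EBPb).

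With the replicate block, Pol II counts were 70 (24 h against basal), 197 (PWK) and 76 (SPRET), where libraries of 1 number moved together, although in C57BL/6J some of unlike numbers did so as much. The remaining groups had 2 same-numbered pairs, too few to judge whether the libraries were paired. Their correlations ran from −0.0728 (EGR2, 6 h against basal) to 0.492 (H3K27ac in NOD). For H3K27ac they were 0.441 in PWK, 0.434 in BALB and 0.261 in SPRET, and for Pol II 0.368 in NOD. Block counts of these groups were 10 (24 h against 6 h), 18 higher and 9 lower (6 h), 0 (BALB) and 165 (NOD) for Pol II, 159 for H3K4me3, 287 (BALB), 458 (NOD), 238 (PWK) and 141 (SPRET) for H3K27ac, 1 for genotype in basal cells, 5 for the interaction, 13 for STAT6, and 3 (6 h) and 4 (24 h) for EGR2 tags. The shares that the block, edgeR and DESeq2 fits called over all regions were not counted. Nothing particular to the members is therefore read from their counts.

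With a peak centre within 150 bp of the region centre, 24 h shares of members were 50.7% (EGR2), 69.7% (STAT6), 44.9% (PPARg), 64.1% (PU.1) and 42.2% (C/EBPb), and basal shares 18.1% (STAT6), 41.3% (PU.1) and 13.3% (C/EBPb). Lists of equal length gave 23.9% (EGR2), 67.9% (STAT6), 16.4% (PPARg) and 32.1% (C/EBPb). Over the whole 1000 bp, letters were found in 8.73% (EGR), 41.7% (loose EGR), 34.8% (STAT6), 39.1% (AP-1), 39.5% (C/EBP), 14.95% (PU.1) and 33.6% (KLF) of members, and over the central 200 bp in 16.99% (loose EGR), 13.995% (STAT6), 20.9% (AP-1), 13.4% (C/EBP) and 10.4% (KLF). For single regions, 237 values kept their side of the threshold, 50 lost it and 4 gained it, and none changed sign. The causes were not tested. Regions of few tags have the least precise values.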
